A study of Homo sapiens with 32 samples.

Results

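The aminoacyl-tRNA synthetase genes were taken from a table of newly made RNA in the human hepatoma line HUH7, an established cell line, and followed from a mitotic block into G1. Members were the protein-coding genes whose current symbol is a 1-letter amino acid code followed by ARS, ARS1 or ARS2, together with EPRS1, FARSA and FARSB. That rule found 37 of 18420 protein-coding genes in the table, 20 for cytosolic and 17 for mitochondrial enzymes. In these names the letter is the amino acid, a final 1 marks the cytosolic enzyme and a final 2 the mitochondrial one.

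RNA made during a 40 minute pulse of 0.5 mM 5-ethynyl uridine (EU), a uridine analogue that lets labelled RNA be captured apart from older RNA, was compared between 7 groups. For the 6 release groups, cells were held with 2 mM thymidine for 24 hours, left without it for 2 hours, arrested with nocodazole at 0.06 ug/mL for 16 hours, shaken off, washed and replated, and they are labelled as 0, 40, 80, 105, 165 or 300 minutes after the block. The seventh group was an asynchronous culture given EU alone. The labels list 3 libraries in each of these groups, all of the same line, and the deposited table has 1 value per group, so no replicate error, test or number of replicates stands behind any value below. Values are the authors' FPKM (fragments per kilobase, on a scale whose total is not stated), so levels are relative and are per length between genes.

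Of the 18420 genes, 17609 had at least 1 FPKM in at least 3 groups and were kept, and all 37 synthetase genes were among them. A fold is the ratio of FPKM + 1 between 2 groups, and a gene at least 2-fold apart was counted. In low values the FPKM repeated in steps. Reads were estimated by taking a step as 1 read and FPKM as scaled to the whole gene length, neither of which is stated. On that basis the lowest synthetase value (VARS2 at 0 minutes) rested on 86 reads, a counting error of 10.8%, and the median of all 259 values on 2200. If FPKM was scaled to the shorter transcript length, the reads would be fewer. The labelled line was checked with 12 hepatoma genes (such as ALB, AFP and TF). Their summed level was 23005 FPKM in the asynchronous culture and 1923 to 4659 FPKM in the release groups, and all 12 were at least 2-fold lower at both 0 and 300 minutes than in the asynchronous culture. Summed blood markers were at 12.6 to 57.6 FPKM, with HBB (globin) listed at 0 in 6 of the 7 groups, and summed stroma and endothelium markers at 46.0 to 72.7 FPKM. Of these, CD79A (a B cell receptor chain) was at 27.3 FPKM at 0 minutes and 0.650 in the asynchronous culture, and COL1A1 (collagen) was 6.60-fold higher at 0 minutes than there. The part of these differences in the results below was not tested.

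Each aminoacyl-tRNA synthetase joins 1 kind of amino acid to its transfer RNA, the step that sets how the genetic code is read. Cytosolic and mitochondrial protein synthesis use separate sets of enzymes that are nearly all encoded by separate nuclear genes; GARS1 and KARS1 each serve both compartments, and mitochondrial glutaminyl-tRNA is made by amidation instead. Several cytosolic enzymes sit in the multi-synthetase complex, held together by scaffold proteins. Many cytosolic synthetase genes are known targets of ATF4, the transcription factor of the integrated stress response, which also drives genes of amino acid uptake and synthesis. A list of 11 such genes was used below (AARS1, CARS1, EPRS1, GARS1, IARS1, MARS1, NARS1, SARS1, TARS1, WARS1 and YARS1). It was drawn from general knowledge of ATF4, with earlier results of these data known, and is called ATF4-listed.

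The genes for cytosolic enzymes had higher levels of new RNA than those for mitochondrial enzymes. Over the 7 groups the median of the gene means was 207 FPKM for the cytosolic and 88.6 FPKM for the mitochondrial set, beside 70.7 FPKM over all kept genes. Each mitochondrial gene was paired with the cytosolic gene of the same amino acid, giving 18 pairs. FARS2 was used with both FARSA and FARSB, and EPRS1 with both EARS2 and PARS2. The cytosolic gene was higher in 16 pairs, with a median ratio of 1.99. The exceptions were methionine and arginine. MARS2, which charges mitochondrial methionine tRNA, had the highest mean of all members at 797 FPKM, and the ratio of MARS1 to MARS2 was 0.470. RARS2 (mitochondrial arginine) had the next highest mean, 446 FPKM, followed by RARS1 (its cytosolic counterpart) at 409 FPKM, a ratio of RARS1 to RARS2 of 0.917. At the other end were FARS2 (mitochondrial phenylalanine) at 41.3, VARS2 (mitochondrial valine) at 47.3 and NARS2 (mitochondrial asparagine) at 48.4 FPKM. The widest gap between partners was for threonine, where TARS1 stood 7.46 times above TARS2.

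**Figure D1:**
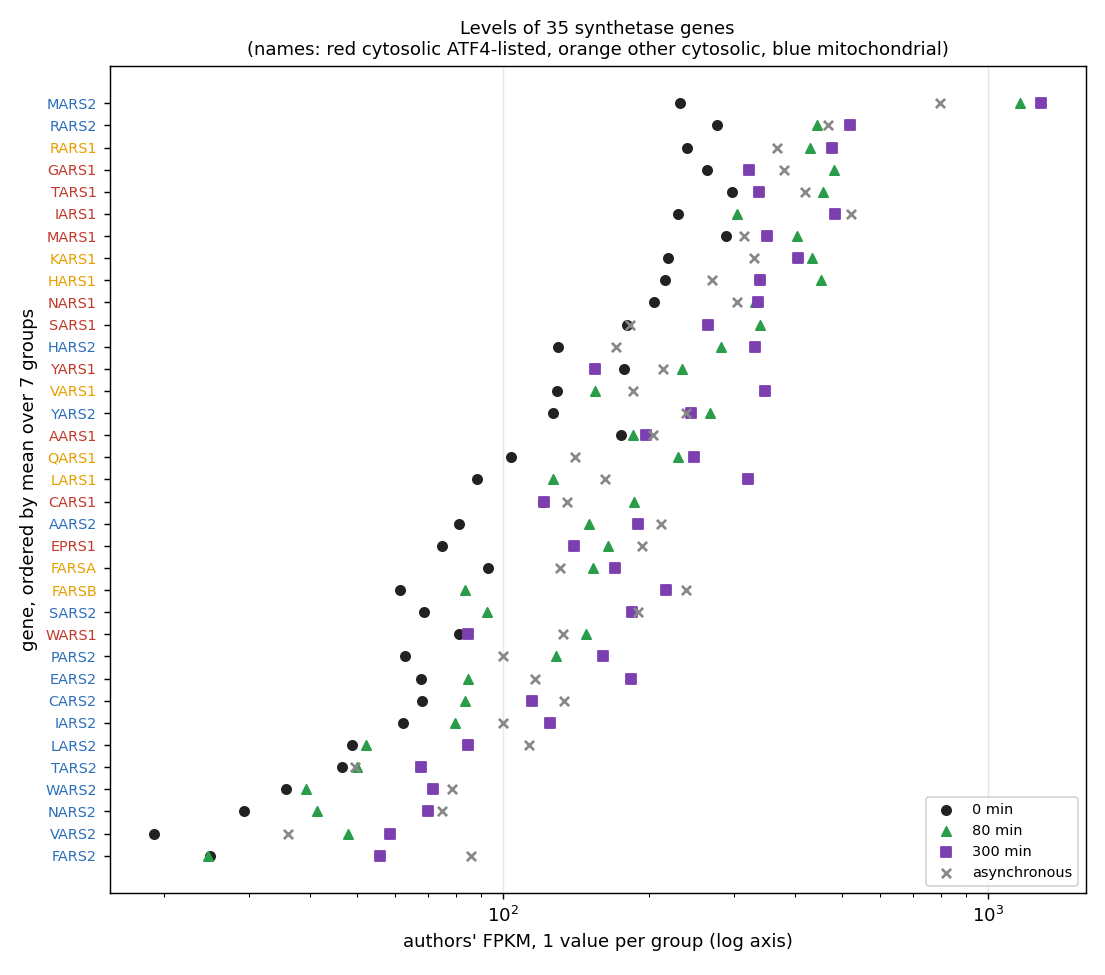
FPKM on a log axis of 35 of the 37 synthetase genes at 0, 80 and 300 minutes and in the asynchronous culture, 1 deposited value per group, with genes ordered by their mean over 7 groups. MARS2 tops the order at a mean of 797 FPKM and FARS2 ends it at 41.3, and every circle for 0 minutes lies left of the cross for the asynchronous culture.

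At 0 minutes of release, new RNA from every synthetase gene was below its level in the asynchronous culture. This held for 37 of 37 members, beside 56.8% of all kept genes lower by any amount. The median log2 fold was -0.52 for cytosolic genes, -0.90 for mitochondrial genes and -0.21 for all kept genes. At least 2-fold lower were 10 members (27.0%), beside 19.1% of all kept genes, and they comprised 3 cytosolic and 7 mitochondrial genes. No member was at least 2-fold higher, beside 13.2% of all kept genes. Comparisons at 0 minutes share that group with the later ones at 40 and 80 minutes, so their values are not independent.

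The largest deficit was in FARSB, which encodes the beta subunit of cytosolic phenylalanyl-tRNA synthetase: 61.3 FPKM at 0 minutes, where the asynchronous culture had 238 (log2 fold -1.94). Its partner FARSA, the alpha subunit of the same enzyme, was at 93.1 against 131 FPKM (log2 fold -0.49). The 2 subunit genes thus stood at unlike fractions of their asynchronous levels. MARS2 was at 232 against 797 FPKM (-1.78) and FARS2 at 24.9 against 86.0 FPKM (-1.75). SARS2 (mitochondrial serine) was lower by a log2 fold of -1.46, AARS2 (mitochondrial alanine) by -1.37, EPRS1 (the joined glutamate and proline enzyme) by -1.36 and NARS2 by -1.33. The same 2-fold limit was passed by LARS2 (mitochondrial leucine, -1.19), IARS1 (cytosolic isoleucine, -1.19) and WARS2 (mitochondrial tryptophan, -1.11). Nearest to their asynchronous levels were SARS1 (cytosolic serine, 180 against 183 FPKM, log2 fold -0.02), TARS2 (-0.09), MARS1 (-0.12), CARS1 (cytosolic cysteine, -0.17) and AARS1 (cytosolic alanine, -0.22). The 5 smallest differences thus held 4 ATF4-listed genes, where 11 of the 37 members are listed. EPRS1 and IARS1, among those at least 2-fold lower, are ATF4-listed as well. The median log2 fold was -0.50 for the ATF4-listed and -0.59 for the other cytosolic genes.

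The columns differ in their overall level, and this touches the comparison with the asynchronous culture. When the columns were quantile normalized, 4 members were at least 2-fold lower (FARSB, FARS2, MARS2 and NARS2), 17 members changed sign, and the share of higher genes among all genes at least 2-fold apart was 52.1% in place of 40.8%. When columns were set to equal medians, that share was 78.0%, 3 members were at least 2-fold lower (FARSB, FARS2 and MARS2) and 12 changed sign.

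Between 0 and 40 minutes the synthetase genes differed little. None was 2-fold apart, beside 1.88% of all kept genes higher and 1.05% lower. The median log2 fold was 0.08 for cytosolic genes, 0.04 for mitochondrial genes and 0.11 for all kept genes. The 5 highest folds were those of VARS2 (19.1 to 28.3 FPKM, 1.46-fold), SARS2 (68.6 to 99.3 FPKM, 1.44-fold), QARS1 (cytosolic glutamine, 104 to 143 FPKM, 1.37-fold), KARS1 (lysine, 219 to 287 FPKM, 1.31-fold) and AARS2 (81.2 to 104 FPKM, 1.27-fold). The 5 lowest were IARS2 (mitochondrial isoleucine, 0.882-fold), EPRS1 (0.918-fold), NARS2 (0.951-fold), FARSB (0.951-fold) and LARS1 (cytosolic leucine, 0.954-fold). The sign of 17 members changed under quantile normalization and that of 12 with equal medians.

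By 80 minutes new RNA from the synthetase genes stood above its level at 0 minutes in 36 of 37 members, beside 68.1% of all kept genes. At least 2-fold higher were 8 members (21.6%), beside 19.6% of all kept genes, a share near that background, and none was 2-fold lower (1.74% of all kept genes). These were 3 cytosolic and 5 mitochondrial genes. The median log2 fold was 0.66 for cytosolic, 0.49 for mitochondrial and 0.36 for all kept genes.

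MARS2 stood apart from the other members. Its values were 232 FPKM at 0, 248 at 40, 1165 at 80, 1052 at 105, 794 at 165 and 1287 at 300 minutes, and 797 in the asynchronous culture. New MARS2 RNA was thus low in both early groups and above the asynchronous value at 80, 105 and 300 minutes. From 0 to 80 minutes the fold was 5.00 (log2 2.32), and its log2 fold was 1.46 under quantile normalization and 1.83 with equal medians, so it stayed above 2-fold in both. If a step is 1 read and FPKM was scaled to the whole gene length, the value at 0 minutes rests on 173 reads (a counting error of 7.61%). That at 80 minutes then rests on 1289. MARS1, its cytosolic counterpart, was 1.40-fold higher over the same interval, from 288 to 405 FPKM.

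MARS2 was also the only member whose promoter window held the palindrome made of GCGCA and its reverse complement, the recognition sequence of NRF1, a factor known for nuclear genes of mitochondrial function. Promoter windows run from 250 bases before to 50 after the annotated start and come from RefSeq (GRCh38.p14); 30 members had at least 1. The palindrome was searched on both strands and was in 1.24% of the 35116 windows and in 1.52% of all genes with a window, kept or not. The stretch is shown because it belongs to the member with the largest fold, with the palindrome in capitals, on the plus strand at chr2:197705332-197705361, its first capital 27 bases before the start. A match of letters is a description and no evidence of binding.
MARS2: cgacccggctGCGCATGCGCctctcacacg

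After MARS2, the members at least 2-fold higher at 80 than at 0 minutes were close to the limit. VARS2 went from 19.1 to 48.0 FPKM (2.44-fold) and QARS1 from 104 to 230 FPKM (log2 fold 1.14). EPRS1, at 74.9 FPKM at 0 and 68.7 at 40 minutes, was at 165 FPKM at 80 minutes (2.18-fold), so that its difference lay wholly between 40 and 80 minutes. HARS2 (mitochondrial histidine) was 2.16-fold higher, YARS2 (mitochondrial tyrosine) 2.10-fold, HARS1 (cytosolic histidine) 2.09-fold and PARS2 (mitochondrial proline) 2.03-fold. KARS1 lay just below the limit at 1.98-fold. The lowest folds were those of FARS2 (24.9 and 24.6 FPKM, 0.987-fold), AARS1 (175 and 186 FPKM, 1.06-fold), LARS2 (1.07-fold), TARS2 (1.07-fold) and WARS2 (1.10-fold).

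Most of these calls depended on how the columns were scaled. Under quantile normalization 2 members were at least 2-fold higher (MARS2 and VARS2), with equal medians only MARS2 was, and the sign changed in 21 and 14 members. Over all kept genes, the higher share of those 2-fold apart was 91.8% as deposited, 66.3% and 50.6%, and the all-gene median was lower by 0.41 and 0.48 on the log2 scale. Relative to all kept genes, the median of the mitochondrial set was 0.13 as deposited and -0.11 under quantile normalization, and that of the cytosolic set 0.30 and -0.07.

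The fold at 80 minutes was larger in short synthetase genes. Gene lengths (GENCODE release 29) ran from 3.02 kb in MARS2 to 568 kb in FARS2, and those members also had the highest and the lowest fold. Among 10 members under 20 kb the median fold was 2.06 and 6 were at least 2-fold higher, beside 31.0% of all kept genes of that length. In the 14 members of 20 to 50 kb the median was 1.58 with 1 at least 2-fold higher, and in the 13 of 50 kb or more it was 1.32 with 1, beside 20.1% and 7.08% of all kept genes of those lengths. The 1 long exception was EPRS1, at 78.1 kb. Spearman's rho between length and fold was -0.59 over the 37 members (-0.42 in the cytosolic, -0.74 in the mitochondrial set) and -0.25 over 17446 genes with a length; it is a description over genes that share the same columns. SARS2 (15.6 kb, 1.35-fold) and VARS1 (cytosolic valine, 18.4 kb, 1.20-fold) were short members with small folds.

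**Figure D2:**
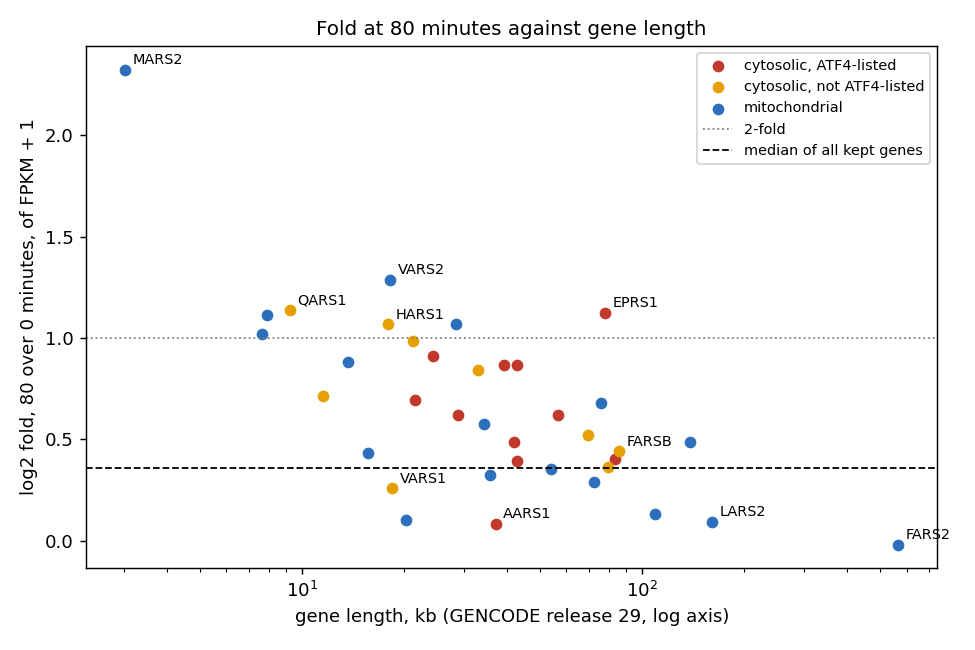
Log2 fold of FPKM + 1 between 80 and 0 minutes against gene length in kb on a log axis, 1 point per synthetase gene. MARS2 (3.02 kb) lies far above the 2-fold line, FARS2 (568 kb) at about no difference, and EPRS1 is the 1 member above 50 kb over that line.

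From 80 to 300 minutes most mitochondrial genes were higher, and the cytosolic genes were split. Of 17 mitochondrial genes, 15 were higher at 300 than at 80 minutes, and of 20 cytosolic genes 10 were, beside 39.1% of all kept genes higher by any amount. The median log2 fold was 0.43 for the mitochondrial set, -0.04 for the cytosolic set and -0.19 for all kept genes. Among the cytosolic genes 3 of 11 ATF4-listed ones were higher (median -0.36) and 7 of the other 9 (median 0.15). All comparisons at 300 minutes share that group, so their splits by the list are not independent. At least 2-fold higher were 5 members (13.5%), beside 7.14% of all kept genes, 3 of the 20 cytosolic (15%) and 2 of the 17 mitochondrial genes (11.8%), and none was 2-fold lower, beside 12.7%. The members at least 2-fold higher were the same 5 under both other scalings.

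Those 5 were late genes. FARSB was at 61.3, 58.3, 83.6, 109, 173 and 217 FPKM over the 6 release times and at 238 in the asynchronous culture, higher at each time after 40 minutes than at the one before, and did not reach the asynchronous value (2.58-fold from 80 to 300 minutes). LARS1 was at 88.2, 84.1, 127, 181, 271 and 321 FPKM and passed its asynchronous level of 162 FPKM (2.51-fold). VARS1 stayed at 129 to 156 FPKM until 80 minutes, then was at 189, 277 and 348 FPKM, above its asynchronous 185 (2.24-fold). FARS2 was at 24.4 to 28.3 FPKM until 105 minutes and at 45.4 and 55.7 FPKM thereafter, below its asynchronous 86.0 (2.22-fold). EARS2 (mitochondrial glutamate) was at 67.6 FPKM at 0 and 184 FPKM at 300 minutes (2.15-fold from 80 minutes). SARS2 lay just below the limit at 1.98-fold. The lowest folds were those of ATF4-listed genes: WARS1 (cytosolic tryptophan, 0.571-fold), CARS1 (0.656-fold), YARS1 (cytosolic tyrosine, 0.664-fold), GARS1 (glycine, 0.670-fold) and TARS1 (cytosolic threonine, 0.738-fold).

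**Figure D3:**
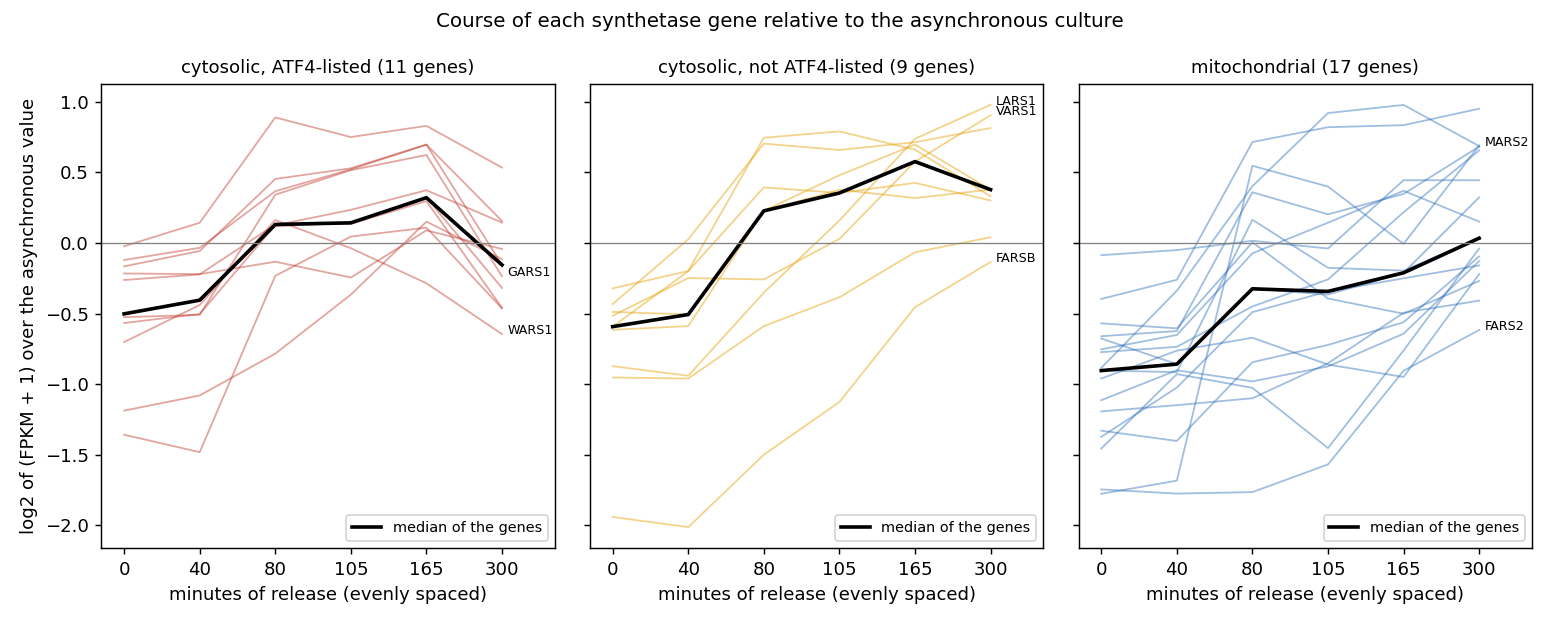
Log2 of FPKM + 1 relative to the asynchronous culture (line at 0) for each synthetase gene over 6 release times, drawn evenly spaced, with the median in black. The medians of the ATF4-listed cytosolic, other cytosolic and mitochondrial genes were 125%, 149% and 86.4% of the asynchronous level at 165 minutes and 89.8%, 130% and 102% at 300 minutes.

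In the last interval all 11 ATF4-listed genes were lower at 300 than at 165 minutes, beside 52.7% of all kept genes, with a median log2 fold of -0.54 and a range from -0.86 to -0.13. Among the other 26 members 5 were lower: HARS1, RARS1 and KARS1 of 9 other cytosolic genes (median 0.10) and VARS2 and RARS2 of 17 mitochondrial genes (median 0.29), with a median of -0.02 over all kept genes. No member was 2-fold apart, beside 2.1% of all kept genes higher and 3.52% lower. This comparison was added after the values had been seen, and the list was chosen with earlier results of these data known, so the split is a description only. The count of 11 of 11 stood under quantile normalization and with equal medians, where 5 and 6 of the other 26 were lower. It stood in the remaining settings too, but other pseudocounts and filters cannot change the sign of a fold. Joining the NM transcripts in other ways could touch only TARS1 and WARS1 of the 11. Length did not move with this fold among the members (rho -0.02).

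GARS1 had the largest difference. Its values were 264, 267, 482, 543, 586 and 322 FPKM over the release and 380 in the asynchronous culture, so that new GARS1 RNA was above the asynchronous level from 80 to 165 minutes and below it at 300 minutes (0.551-fold from 165 to 300 minutes). CARS1 followed the same order, at 121, 131, 186, 196, 221 and 122 FPKM, against 136 in the asynchronous culture (0.554-fold). YARS1 was at 178, 183, 234, 235, 263 and 155 FPKM, against 214 (0.592-fold), and ended lower than it began. TARS1 was 0.642-fold and EPRS1 0.673-fold of the level at 165 minutes. MARS1 (cytosolic methionine) was at 509 FPKM at 165 and 350 at 300 minutes (0.687-fold). The ATF4-listed genes with the smallest differences were AARS1 (217 and 198 FPKM, 0.913-fold) and NARS1 (cytosolic asparagine, 394 and 336 FPKM, 0.853-fold).

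The members with the highest folds over the same interval were all mitochondrial. CARS2 (mitochondrial cysteine) went from 68.7 to 115 FPKM (1.66-fold) while CARS1 was 0.554-fold. SARS2 was 1.65-fold, MARS2 1.62-fold, IARS2 1.45-fold and WARS2 1.43-fold higher at 300 than at 165 minutes. The time of the highest release value uses the same columns and so adds no independent support. It was 165 minutes in 9 and 80 minutes in 2 (SARS1 and WARS1) of the ATF4-listed genes, beside 13.7% and 23.1% of all kept genes, and 300 minutes in none. In the mitochondrial set it was 300 minutes for 13 of 17 and in the other cytosolic set for 6 of 9, beside 21.6% of all kept genes.

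**Figure D4:**
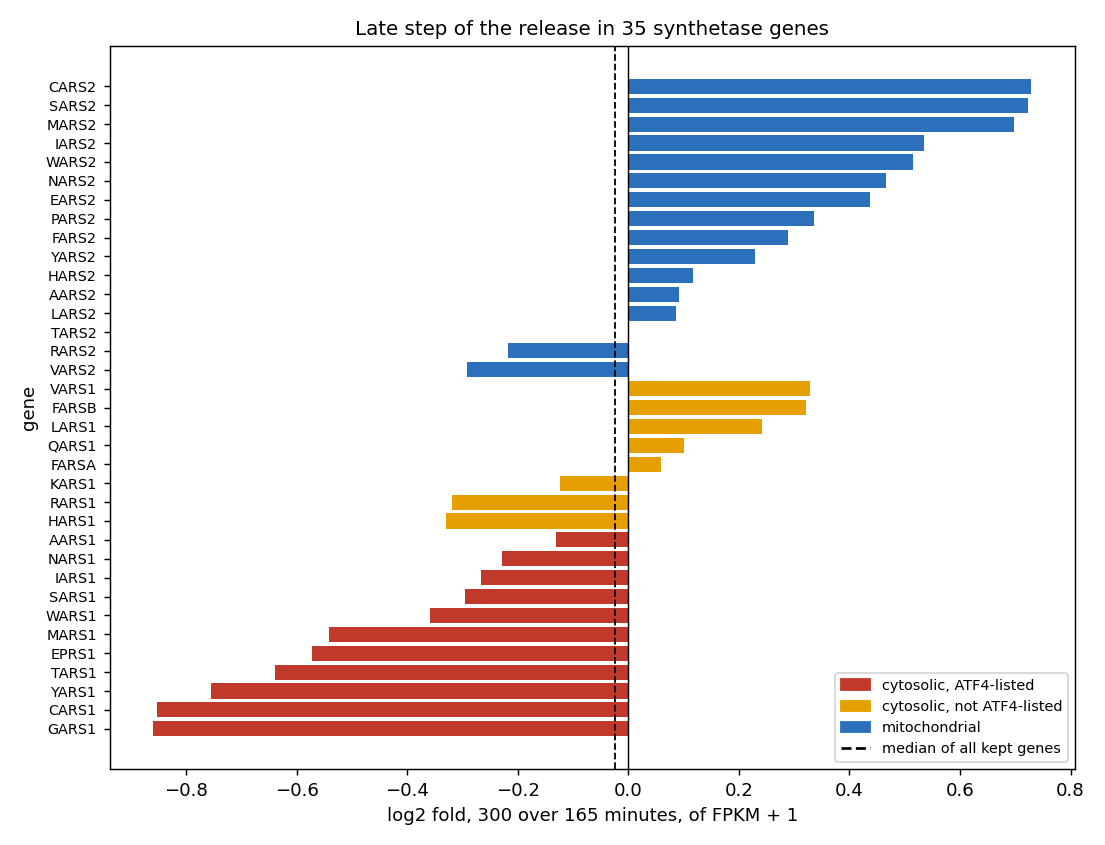
Log2 fold of FPKM + 1 between 300 and 165 minutes for 35 of the 37 synthetase genes, coloured by group, with the all-gene median of -0.02 as a dashed line. All 11 ATF4-listed genes lie left of 0 and 14 of the 16 mitochondrial genes drawn lie right of it, TARS2 by almost nothing.

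Other genes of the ATF4 response were also lower at the last time. Of 21 on that list, 20 were lower at 300 than at 165 minutes, beside 52.7% of all kept genes. The median log2 fold was -0.70, beside -0.02 over all kept genes. Under quantile normalization 17 of the 21 were lower, beside 49.2% of all kept genes. At least 2-fold lower were 4 of the 21 (7 with equal medians), beside 3.52% of all kept genes. This list too was chosen with earlier results of these data known, so these counts are a description only. STC2 (a secreted glycoprotein induced by ATF4) was at 348 FPKM at 0, 1098 at 165 and 341 at 300 minutes, against 57.8 in the asynchronous culture. DDIT4 (an inhibitor of mTORC1 signalling) was at 449, 1171 and 444 FPKM, against 94.4. DDIT3 (the stress factor CHOP) was highest at 80 minutes, at 4999 FPKM, and was at 1754 FPKM at 165 and 1339 at 300 minutes, and ASNS (asparagine synthetase) was at 157 FPKM at 80, 100 at 165 and 51.0 at 300 minutes. New RNA of ATF4 itself was nearly level, at 2993 FPKM at 165 and 2926 at 300 minutes. At 0 minutes, as deposited, 11 of 21 on this list were above the asynchronous culture, beside 42.9% of all kept genes. At least 2-fold above it were 4 of the 21 (5 and 6 under the other scalings), beside 13.2% of all kept genes as deposited. No synthetase gene was above the asynchronous culture at 0 minutes as deposited, but 17 were under quantile normalization and 12 with equal medians. From 0 to 80 minutes 7 of 21 were at least 2-fold higher (19.6% of all kept genes, and none of the 21 under either other scaling), SESN2 (a leucine sensor) by 2.34-fold and STC2 by 2.35-fold.

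Many ATF4-listed genes carry the same short element near their start. TGATGNAA, the letters of the element at which ATF4 and C/EBP proteins are known to bind together, was searched on both strands of the promoter windows and was in 3.62% of all 35116 windows and in 4.46% of 27305 genes. Among 30 members with a window it was in 8. These were 7 of the 10 ATF4-listed members with a window, and 1 of the 20 others, YARS2. As the list was itself drawn from knowledge of ATF4, this split is no independent support for it. The matches are of letters only and are no evidence of binding. The 7 ATF4-listed genes with the element were lower at 300 than at 165 minutes (median 0.687-fold) and so were the 4 without a match or a window (median 0.724-fold), while YARS2 was 1.17-fold higher. The matches are printed 5′ to 3′ on the strand of the gene to show the letters at each match, with the element in capitals (GRCh38.p14).
AARS1, minus strand, chr16:70289676-70289703: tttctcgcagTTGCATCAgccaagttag
CARS1, minus strand, chr11:3057408-3057435: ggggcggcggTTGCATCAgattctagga
GARS1, plus strand, chr7:30594835-30594862: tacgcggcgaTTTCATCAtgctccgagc
IARS1, minus strand, chr9:92293693-92293720: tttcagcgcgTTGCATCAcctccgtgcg
MARS1, plus strand, chr12:57488054-57488081: ccggttccggTTGCATCAgcgagggatt
NARS1, minus strand, chr18:57621805-57621832: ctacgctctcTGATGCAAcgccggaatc
TARS1, plus strand, chr5:33440957-33440984: cgcctttcgaTTGCATCAgctggtccag
YARS2, minus strand, chr12:32756077-32756104: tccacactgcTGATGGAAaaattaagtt

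In 5 of these genes the element began within 15 bases of the annotated start: CARS1 (2 bases before), MARS1 (4 before), IARS1 (13 before), TARS1 (base 3 after) and NARS1 (base 15 after). In GARS1 it began 33 bases before, and in AARS1 and YARS2 it lay far upstream, 187 and 197 bases before. The cAMP response element TGACGTCA (1.85% of windows, 2.25% of genes) was in no member window. The E-box CACGTG (7.26% of windows, 8.77% of genes) was in CARS2, EARS2, IARS1 and MARS2. The ETS motif CCGGAAG (10.3% of windows, 12.2% of genes) was in 16 of 30 members, 9 cytosolic and 7 mitochondrial. All shares of genes given for motifs are over the 27305 genes with a window, and were not limited to the kept genes.

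At 300 minutes the synthetase genes lay around their asynchronous levels. None was 2-fold apart, beside 9.44% of all kept genes higher and 8.58% lower, and 20 of 37 were above the asynchronous culture, beside 59.3% of all kept genes. The median log2 fold was 0.09 for cytosolic, 0.03 for mitochondrial and 0.12 for all kept genes. The cytosolic set was split by the list: 3 of 11 ATF4-listed genes were above (median -0.16) and 8 of the other 9 (median 0.38). That split rests on the same 300 minute values as the earlier comparisons with that time. The list was also chosen with earlier results of these data known, so the split adds no independent support. The highest folds were those of LARS1 (1.97-fold, and past 2-fold under both other scalings), HARS2 (331 against 171 FPKM, 1.93-fold), VARS1 (1.87-fold), QARS1 (248 against 141 FPKM, 1.76-fold) and MARS2 (1.61-fold). The lowest were WARS1 (84.5 against 133 FPKM, 0.639-fold), FARS2 (0.652-fold), EPRS1 (140 against 194 FPKM, 0.725-fold), YARS1 (0.727-fold) and LARS2 (84.9 against 113 FPKM, 0.754-fold). Shorter members stood higher here too (rho with length -0.60 over the members, -0.14 over all genes with a length).

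Over the whole course, the number of members above the asynchronous culture was 0 at 0 minutes, 2 at 40 (QARS1 and SARS1), 20 at 80, 20 at 105, 23 at 165 and 20 at 300 minutes. Of all kept genes, 42.9%, 48.5%, 63.6%, 63.7%, 59.9% and 59.3% were above it at those times. The median over all kept genes was at 86.5% of the asynchronous level at 0 minutes, 123% at 80 and 110% at 165 minutes. The median cytosolic gene was at 69.7%, 111% and 132% at those 3 times, below the all-gene median at 0 and 80 minutes and above it at 165 minutes. The median mitochondrial gene was at 53.5%, 79.9% and 86.4%, below the all-gene median at all 3. The 8 enzymes of the multi-synthetase complex had medians of 59.97%, 101% and 148%. The 19 enzymes of class I and the 18 of class II, which differ in the fold of the catalytic domain, had medians of 95.0% and 105% at 80 minutes. EPRS1, the joined glutamate and proline enzyme, was counted in class I only, although PARS2 (mitochondrial proline) was counted in class II.

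HARS1 and HARS2 start back to back and shared the early part of their course. HARS1 was at 215, 235, 452, 467, 426 and 339 FPKM and at 269 in the asynchronous culture, and HARS2 at 130, 143, 281, 303, 306 and 331 FPKM and at 171. From 0 to 80 minutes their folds were 2.09 and 2.16. From 80 to 300 minutes they went opposite ways, 0.750-fold in HARS1 and 1.18-fold in HARS2. Their promoter windows overlap by 184 bases on opposite strands. The 84 bases between the 2 annotated starts are shown because both genes read away from them (plus strand, chr5:140691371-140691454, GRCh38.p14), with the 2 matches to the ETS motif CCGGAAG, 1 on each strand, in capitals.
HARS1 to HARS2: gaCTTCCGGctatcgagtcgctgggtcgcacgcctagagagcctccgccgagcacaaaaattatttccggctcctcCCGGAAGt

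In all, 10 members had a window overlapping one on the opposite strand, 8 of them with a protein-coding partner. The partners did not share 1 course. KARS1 was 1.98-fold and TERF2IP (a telomere protein) 3.38-fold higher at 80 than at 0 minutes, and from 80 to 300 minutes they were 0.938-fold and 0.431-fold. SARS2 was 1.35-fold higher at 80 minutes and MRPS12 (a mitochondrial ribosome protein) 2.69-fold, and then SARS2 was 1.98-fold and MRPS12 0.439-fold at 300 minutes. FARS2 and LYRM4 (an iron-sulfur cluster assembly protein) were both low until 105 minutes and highest at 300 minutes, and RARS2 and ORC3 (an origin recognition subunit) were both highest at 165 minutes. EARS2 was highest at 300 and UBFD1 at 105 minutes, and WARS1 was 1.82-fold and WDR25 1.22-fold higher at 80 than at 0 minutes. Overlapping transcripts of a pair can share reads if counting ignored strand; the sources used here do not say whether it did.

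**Figure D5:**
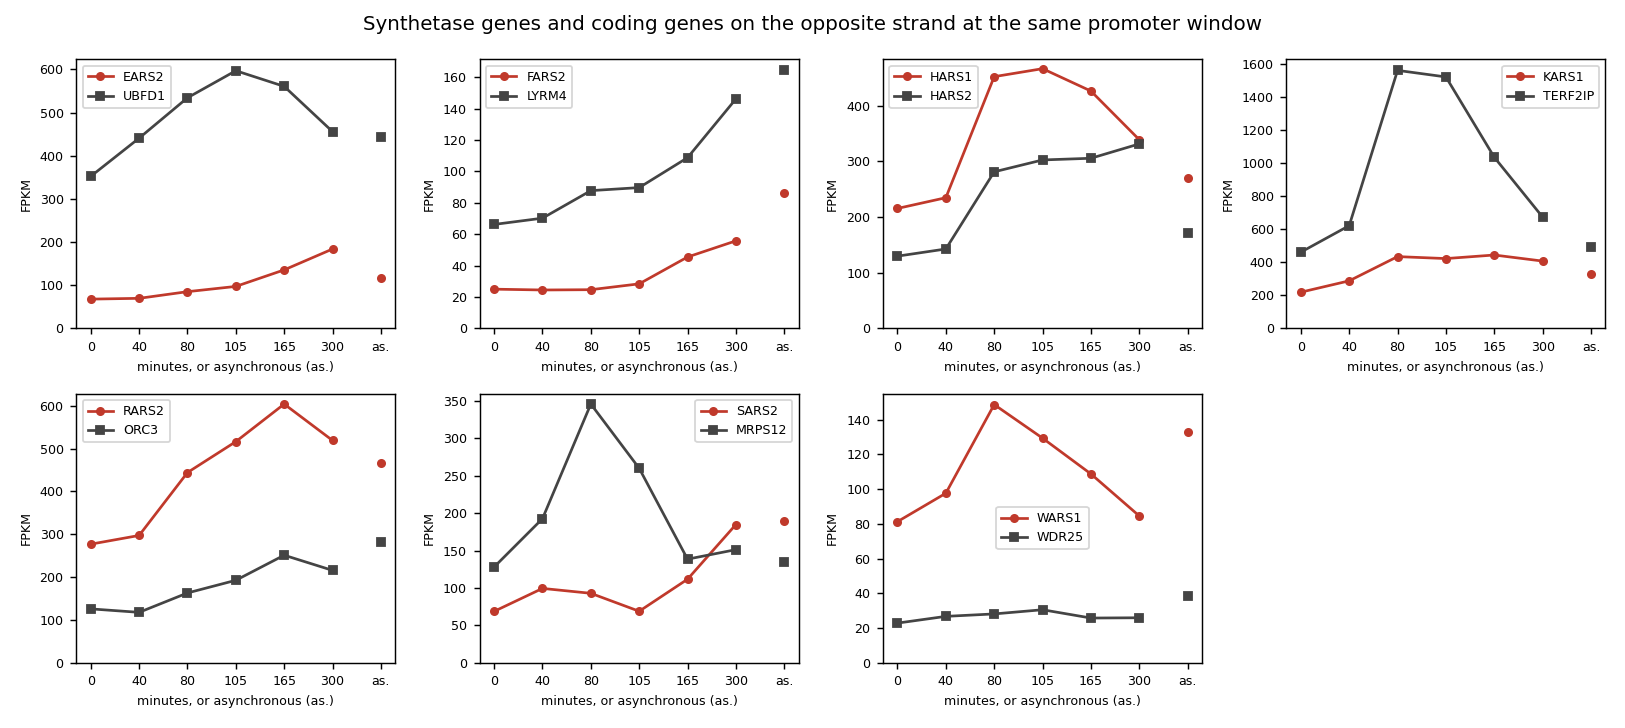
FPKM over the release times and in the asynchronous culture (as.) of 7 synthetase genes (red circles) and the coding gene on the opposite strand at the same promoter window (grey squares), 1 deposited value per group. HARS1 and HARS2 are about 2-fold higher together from 40 to 80 minutes, while TERF2IP and MRPS12 are highest at 80 minutes and KARS1 and SARS2 are not.

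Other genes of tRNA charging and its surroundings were taken from lists. All 3 scaffold genes of the multi-synthetase complex were higher at 80 than at 0 minutes, beside 68.1% of all kept genes. They were AIMP2 (205 to 425 FPKM, 2.07-fold), AIMP1 (83.8 to 151 FPKM, 1.80-fold) and EEF1E1 (178 to 266 FPKM, 1.49-fold). Under quantile normalization 2 of the 3 were higher. EEF1E1 was at 554 FPKM in the asynchronous culture, a log2 fold of -1.63 at 0 minutes. TARS3, a further threonyl-tRNA synthetase whose symbol falls outside the rule, was between 88.2 FPKM at 0 and 137 FPKM at 300 minutes. Of 4 genes for mitochondrial amidation and formylation, none was 2-fold higher at 80 than at 0 minutes, beside 19.6% of all kept genes. Among the 4, GATC was at 411 FPKM at 80 minutes against 214 at 0 minutes and MTFMT at 114 against 76.1. QRSL1 (log2 fold -1.38) and GATB (-1.02) were the lowest at 0 minutes against the asynchronous culture.

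The genes of tRNA maturation and export had 9 of 14 at least 2-fold higher at 80 than at 0 minutes and a median log2 fold of 1.09, beside 0.62 over the 37 members and 19.6% and 0.36 over all kept genes. Under quantile normalization 2 of the 14 and with equal medians 3 were at least 2-fold higher. RPP40 (a subunit of RNase P) was at 35.5 and 133 FPKM (3.68-fold) and TSEN34 (a subunit of the tRNA splicing endonuclease) at 80.3 and 295 FPKM (3.64-fold). XPOT, which exports tRNA from the nucleus, was at 184 FPKM at 0, 373 at 105 and 190 at 300 minutes, against 478 in the asynchronous culture (log2 fold -1.37 at 0 minutes). DTD2, which removes wrongly charged amino acids, was 4.37-fold higher at 80 minutes (156 to 685 FPKM), AARSD1 was 1.44-fold higher, and DTD1 was at 17.9 and 17.6 FPKM.

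Elongation factors serve the delivery of charged tRNA to the ribosome and the steps that follow. Of 5 cytosolic ones, EEF1B2 (787 to 1785 FPKM, 2.27-fold) and EEF1G (361 to 788 FPKM, 2.18-fold) were at least 2-fold higher at 80 minutes, beside 19.6% of all kept genes. None of the 5 was under either other scaling. EEF1B2 (log2 fold -1.05) and EEF1D (-0.81) were lowest at 0 minutes against the asynchronous culture. None of 4 mitochondrial ones was 2-fold higher at 80 minutes, with TSFM at 1.73-fold and GFM2 at 1.68-fold. TUFM (-1.06) and GFM1 (-0.96) were lowest at 0 minutes. Both sets are too small to be compared by these counts.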

How the data were processed

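Per the file headers and the table's name, the authors deposited FPKM per RefSeq transcript, 1 column for each of 7 groups. Build hg19 and the tools Bowtie2 2.2.9, TopHat, bedtools and bcl2fastq are named, with no role, in the submitters' processing notes. How the libraries became a column, the counting, its use of strand and the total used for scaling are not stated in those sources. Multiplied by gene length in kb, the values of 18244 genes summed to between 9.62e+07 and 1.60e+08 per column. Scaling to mapped reads would give at most 1000000 if FPKM was scaled to the whole gene length, which is not stated. If it was scaled to the shorter transcript length, that limit would not apply to this sum. Levels were therefore read as relative. The other groups of the 32 labelled samples were not analysed here.

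Of 48205 transcripts, 47127 matched a symbol in RefSeq tables (GRCh38.p14), and 38336 were NM transcripts. Where the NM transcripts of a gene had different values, these were averaged. The 37 members had 64, with 1 value in 34 genes, and in TARS1, WARS1 and VARS2 values at most 2.22% apart. In 11 genes several transcripts shared 1 value, so transcripts were not told apart. A noncoding SARS1 transcript (941 FPKM at 80 minutes) was left out. Folds used a pseudocount of 1 FPKM, which understates those of low genes. A planned limma test needed values per library and could not be run.

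Named were, per comparison, the 5 highest and 5 lowest folds, every member at least 2-fold apart, the 3 highest and 3 lowest mean levels, 2 genes of each other list at 0 and at 80 minutes, the scaffold genes and TARS3; further members, ATF4 genes and opposite-strand partners were chosen after their values were seen. The values of 2 members and of 1 gene of another list are not reported here singly. The members and lists were chosen with earlier results of these data known. Sequences come from RefSeq. Python 3.11.15, pandas 2.3.3, numpy 2.4.6, scipy 1.17.1 and matplotlib 3.10.9 were used, and the counts of 2-fold genes were tested on simulated data.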

Additional observations from a re-analysis of the deposited data

How the results depend on the processing

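With 1 value per group there is no error, and depth could be estimated only from the steps of low values, under the assumptions given above. Other pseudocounts (0.1 and 10), other filters on low values, other ways of joining transcripts and a wider background left each count of members at least 2-fold apart within 1.5 times. The scaling of the columns did not. For 0 minutes against the asynchronous culture, the count of members at least 2-fold lower was 10 as deposited, 4 under quantile normalization and 3 with equal medians. The count at least 2-fold higher at 80 than at 0 minutes was 8, 2 and 1 under the same settings, and that at 300 minutes over the asynchronous culture 0, 1 and 1. The cause was not tested. Relative to all kept genes, the cytosolic median log2 fold at 0 minutes against the asynchronous culture was -0.31 as deposited and 0.08 under quantile normalization. For 300 against 80 and 300 against 165 minutes no call changed under either scaling; KARS1 changed sign in both under quantile normalization, and TARS2 in the latter under both. No paired analysis was possible because the table has 1 column per group, and for the same reason leaving out a replicate and the replicate block were not run.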
